A study of Rattus norvegicus with 2 samples.

Results

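The proteasome is the large protease that degrades proteins tagged with ubiquitin. Its genes were followed here through all probe sets that carry exactly 1 gene symbol of the Psma to Psmg families or Adrm1 in the platform annotation, leaving out the immunoproteasome genes Psmb8 and Psmb9. The rule goes by name, and it was set with earlier results of these data known, among them that of Adrm1. It gave 43 probe sets for 40 genes, out of 12783 probe sets with 1 symbol and 15866 probe sets in all. By role, 14 genes encode the core particle, 9 the base and 6 the lid of the regulatory particle, and 3 encode activators. A further 8 genes that the same names take in encode 7 assembly chaperones and 1 inhibitor, and they were kept as a group of their own.

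The RNA came from rat sympathetic neurons, on Affymetrix Rat Expression Set 230A arrays. The alone array holds neurons that had been grown without target cells, and the co-culture array holds neurons lifted off myocytes, their target. The design text asks which genes accompany the growth arrest that these neurons enter on contact with target cells. Per the labels, neurons were lifted from dishes that held myocytes or other flat cells with an EDTA wash. The labels state no strain, age or time in culture, and both groups share the platform, the RNA kit and the biotin label. The free-text description of the co-culture sample names neurons grown alone, against its title and source name, and the title was followed. With 1 array per condition there is no replicate spread and no test, and each difference below is between these 2 arrays.

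In the proteasome, stacked rings form a hollow core particle, with alpha subunits (Psma genes) outside and beta subunits (Psmb genes) inside, where the active sites are. The regulatory particle caps it. Its base holds a ring of ATPases (Psmc genes) that unfold the substrate and the scaffold subunits and ubiquitin receptors, and its lid holds the subunits that surround the deubiquitinase. Alternative caps, the activators of the Psme genes, open the core without ubiquitin. Neurons depend on the complex for protein turnover in axons and synapses, and in many tissues interferon raises an alternative set of beta subunits together with Psme1 and Psme2.

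Values are deposited intensities on a linear scale in arbitrary units, and each log2 ratio is the co-culture array over the alone array. A probe set counted as above the filter if its intensity reached its array's median (185.7 alone, 175.0 in co-culture) in at least 1 array, and as bright if it reached the 75th percentile in at least 1 array. Of the 43 proteasome probe sets 42 were above the filter and 41 were bright, the exceptions being the dimmest Psme4 probe set and, among bright ones, also Psmd10. A gene's value is that of its brightest probe set, and all 40 genes were above the filter on it.

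Most transcripts of the proteasome were close on the 2 arrays, as were most of all genes above the filter, with 1 large exception. Adrm1, a ubiquitin receptor of the base, was 2.28-fold lower in neurons from co-culture and was the 1 gene past 1.5-fold in that direction. Psme2, a subunit of an activator, was 1.5-fold higher and was the 1 gene past 1.5-fold in the other. Over all probe sets with 1 symbol above the filter, 4.06% were lower and 1.92% higher by at least 1.5-fold, so 1 of 42 in each direction is a share near that background. The lower one is Adrm1, which the rule names with its result known. Without it 0 of 39 genes were lower by that fold. Of the 40 genes 32 (80%) lay within 1.2-fold, against 70.8% of all genes above the filter and 75.5% of bright probe sets. This share too is near that of bright probe sets.

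The direction of the small differences leaned to higher values. Of the 40 genes 28 had a log2 ratio above 0, and of all 43 probe sets 29 did, against 47.3% of genes and 46% of probe sets above the filter and 51.7% of bright probe sets. The count depended on the scaling, being 27 after quantile normalization or lowess correction, 32 after median scaling and 19 after scaling to the spiked controls, where the share of all genes above 0 was 52.6%, 51.5%, 61.3% and 37.3%. The median log2 ratio of the 40 genes was 0.05 (-0.014 under scaling to the spiked controls). Over 6368 genes above the filter it was -0.015, and over bright probe sets it was 0.0091, which is nearer to that of the 40 genes. Against the genes above the filter the gap was 0.065 as deposited and under each scaling by 1 factor. After quantile normalization and lowess it was 0.021 and 0.026.

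**Figure D1:**
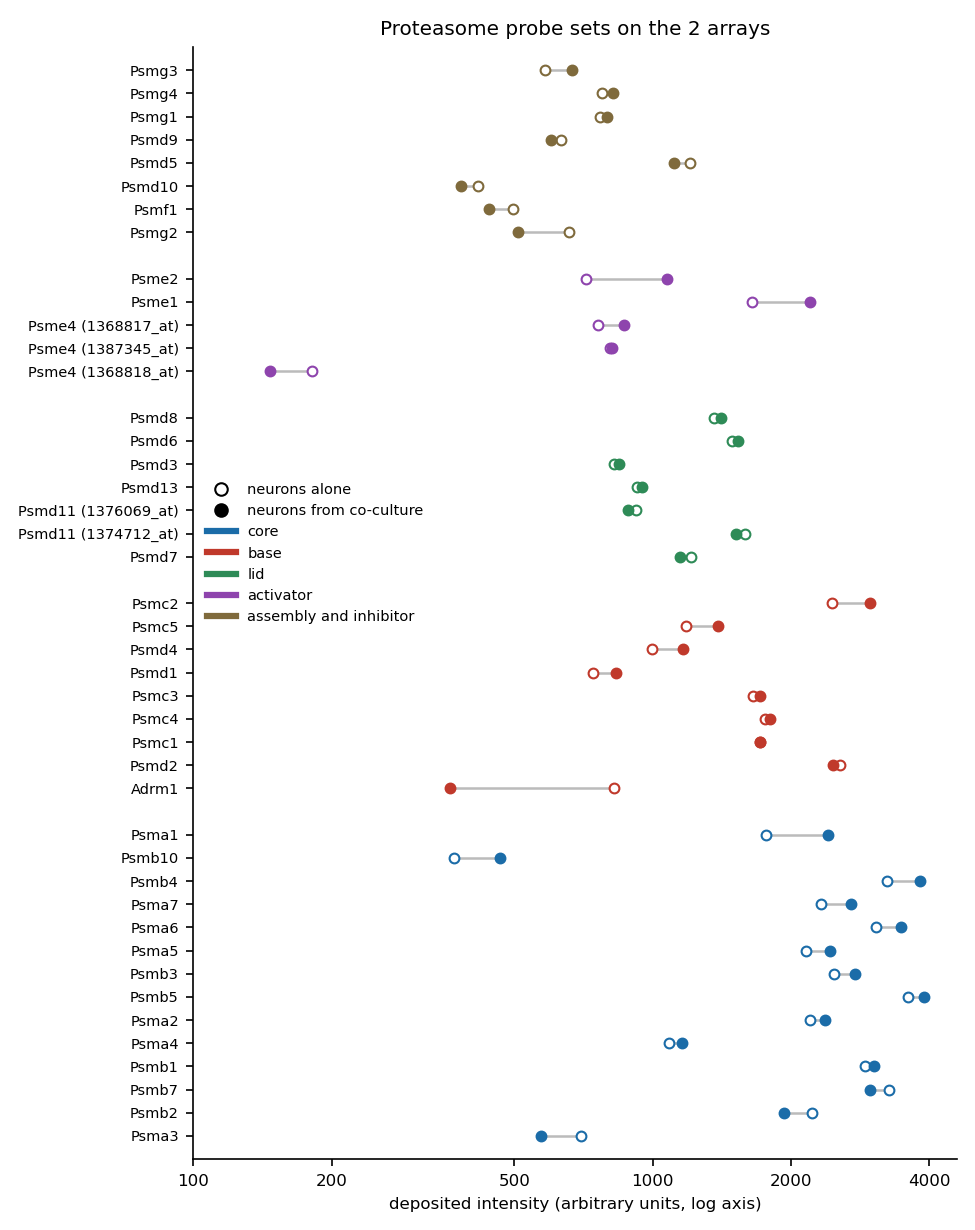
Deposited intensity (log axis, arbitrary units) of the 43 proteasome probe sets in neurons alone (open circles) and neurons from co-culture (filled circles), 1 array each, coloured by role. Adrm1 has the longest line, from 823 to 362, and in the lid the circles of each pair nearly touch. Positions of different probe sets are not comparable as levels.

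Pairs of probe sets for the same gene give a scale for these differences. For 304 genes with a pair of bright probe sets, their disagreement corresponds to an SD of 0.23 on the log2 scale for a single probe set. Both probe sets of a pair were read on the same 2 arrays, so this spread holds no variation between cultures or arrays. Of the 40 proteasome genes 31 were within that spread and 9 beyond it, that is 22.5% against 29.6% of bright probe sets, from which the spread was taken, and 34.6% of all genes above the filter. The 9 were Adrm1, Psma3 and Psmg2 on the lower side and Psma1, Psmb4, Psmb10, Psmc2, Psme1 and Psme2 on the higher. The SD of the log2 ratios was 0.28 over the 40 genes and 0.20 without Adrm1, against 0.30 over all genes above the filter and 0.28 over bright probe sets.

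Adrm1, measured by 1 probe set, encodes Rpn13, a receptor in the base that binds ubiquitin chains and docks the deubiquitinase Uchl5. Its intensity was 823 on the alone array and 362 on the co-culture array, a log2 ratio of -1.19. Only the value in neurons from co-culture was under the 75th percentile of its array, and both were above the array medians. Of the 7225 probe sets with 1 symbol above the filter, 38 (0.526%) had a lower ratio, and 0.9% were lower by at least 2-fold. The ratio ran from -1.25 to -1.10 over the 5 scaling alternatives and the deposited values, so Adrm1 was lower by at least 2-fold in each. There is no other probe set of Adrm1 to set beside it. Among the neuronal markers looked up, only Slc6a2, the noradrenaline transporter, had a log2 ratio of like size (552 against 217, -1.34). The other measured neuronal markers lay between -0.62 (Snap25) and -0.12 (Prph), and the median of the list was -0.44.

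The other ubiquitin receptors of the base were near the middle of all genes or above it. Psmd4, which encodes Rpn10, had 998 on the alone array and 1166 on the co-culture array (1.17-fold higher). Psmd2, which encodes Rpn1, a scaffold that binds ubiquitin and shuttle proteins, had 2559 and 2467 (1.04-fold lower, or higher by 0.03 on the log2 scale under median scaling). The log2 ratios of the 3 receptors were thus -1.19, 0.22 and -0.053. No probe set with 1 symbol names Uchl5 here, so the enzyme that Rpn13 docks was not analysed here. Beside Adrm1 in the genome, its neighbours Osbpl2 and Lama5 were at -0.18 (689 against 606) and 0.35 (162 against 206). Hrh3, on the far side of Osbpl2, was at -1.38 but below the filter on both arrays (103 against 25.8, the latter under the floor). Psma7, a core gene with 4 protein-coding genes between it and Adrm1 in the RefSeq gene order, was at 0.22.

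The remaining base genes were level or slightly higher. The 5 measured ATPases were all at or above 0 as deposited, from Psmc1 (1712 against 1716, log2 ratio 0.0028) through Psmc4 (1755 against 1801) and Psmc3 (1656 against 1713) to Psmc5 (1185 against 1390) and Psmc2 (2453 against 2979). Psmc2 was the highest of the base at 1.21-fold. Under scaling to the spiked controls Psmc1, Psmc3 and Psmc4 turned negative, and Psmc1 did so after quantile normalization and lowess too. Psmd1, a large scaffold subunit, had 741 and 833 (1.12-fold higher). The 9 base genes had a median of 0.048 (-0.016 under scaling to the spiked controls), and the 8 without Adrm1, left out after its value was seen, a median of 0.11 and a range from -0.053 to 0.28.

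The promoter of Adrm1 is shown because that gene stands apart from its complex, with the letters of 2 motifs known from proteasome promoters in capitals. These are TGACNNNGC, the core of the antioxidant response element that Nfe2l1 binds, and CCAAT, the box that the NF-Y factor binds, both searched on both strands in the 250 bases before the start. The sequence is from RefSeq (GRCr8, chr3:187642793-187643042, plus strand), written 5′ to 3′ in the direction of the gene.
Adrm1: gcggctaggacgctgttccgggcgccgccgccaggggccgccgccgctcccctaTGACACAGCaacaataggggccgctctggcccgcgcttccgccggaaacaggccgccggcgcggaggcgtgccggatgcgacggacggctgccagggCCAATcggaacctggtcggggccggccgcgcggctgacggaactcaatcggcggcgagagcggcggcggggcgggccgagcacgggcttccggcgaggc
The first motif begins 196 bases and the CCAAT box 99 bases before the start. Of 38 members with a promoter entry, 7 (18.4%) held the first motif against 10.1% of 33469 promoters and 13.1% of those of genes above the filter. The CCAAT box was in 19 of 38, against 34.0% and 35.6%. Adrm1 shares both motifs with Psma3, Psmb2 and Psmd9, whose log2 ratios were -0.29, -0.20 and -0.071. In Psmb2 the motifs overlap by 1 base. Psmb5, Psmd1 and Psme4 hold the first motif without the box and were at 0.12, 0.17 and 0.0083, so the match is given as a description.

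The core particle was mostly a little higher in neurons from co-culture. Of its 14 genes 11 were higher and 3 lower, none past 1.5-fold, with a median log2 ratio of 0.14. The 11 kept their sign under each of the 5 scaling alternatives, with the core median between 0.071 and 0.22. That median exceeded the one over all genes by 0.15 as deposited, by 0.092 after quantile normalization and by 0.085 after lowess. Bright probe sets had a median of 0.0091 as deposited, a little above the one over all genes. The alpha ring had a median of 0.17 over 7 genes and the beta ring 0.12 over 7.

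In the alpha ring Psma1 was the highest gene of the core, with 1768 on the alone array and 2411 on the co-culture array (1.36-fold higher). Psma7 (2326 against 2701), Psma6 (3069 against 3480) and Psma5 (2164 against 2441) were 1.16-fold, 1.13-fold and 1.13-fold higher. Psma2 (2198 against 2377) and Psma4 (1085 against 1160) were 1.08-fold and 1.07-fold higher. Together with Psma3 these subunits make up the outer ring, which gates the way into the core. Psma3 went the other way and was the lowest gene of the core, with 698 and 571 (1.22-fold lower). A brighter probe set that names both Psma3 and its near copy Psma3l had 3020 and 2900, a log2 ratio of -0.059.

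In the beta ring the catalytic subunits lay on both sides of 0, Psmb5 and Psmb7 within the probe set spread of 0.23. Psmb5, which carries the chymotrypsin-like site that bortezomib blocks, had 3604 on the alone array and 3907 on the co-culture array (1.08-fold higher). Psmb7, which carries the trypsin-like site, had 3267 and 2981 (1.10-fold lower). Psmb6, with the caspase-like site, is measured only by a probe set that also names Psmb6l1, so it is no member, and that probe set had 1537 and 2316 (1.51-fold higher). Among the structural beta subunits Psmb4 (3243 against 3820), Psmb3 (2482 against 2763) and Psmb1 (2901 against 3043) were 1.18-fold, 1.11-fold and 1.05-fold higher, and Psmb2 (2223 against 1935) was 1.15-fold lower. Psmb10, the subunit that takes the place of Psmb7 in the immunoproteasome, had 369 and 465 (1.26-fold higher).

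**Figure D2:**
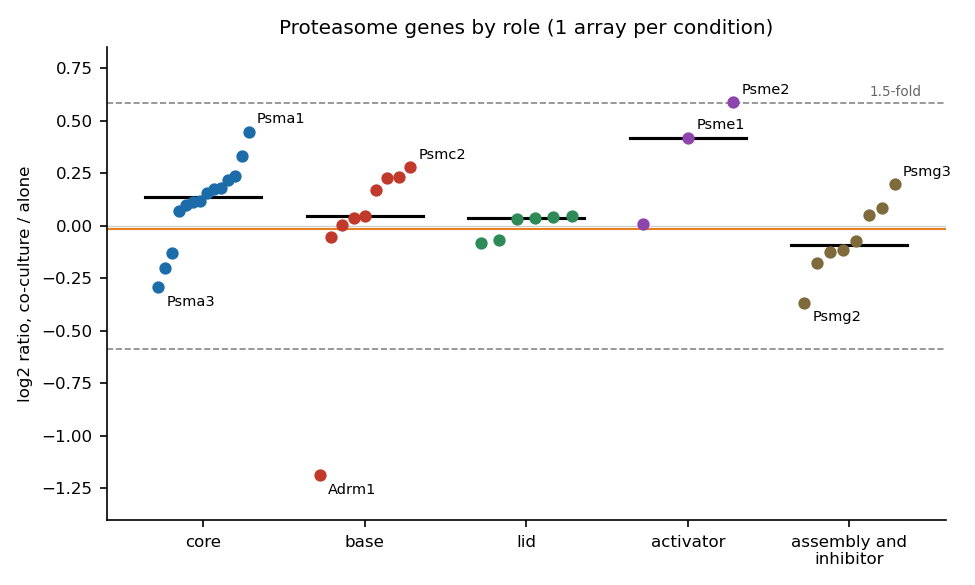
Log2 ratio (co-culture array over alone array) for the 40 proteasome genes (points, brightest probe set, 1 array per condition) by role, with the median of each role (black bars), the median of all 6368 genes above the filter (orange line) and 1.5-fold (dashed lines). Adrm1 at -1.19 lies far below the other base genes, the 6 lid genes lie between -0.081 and 0.048, and Psme2 touches the upper dashed line.

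The lid was the most even role group among those with 6 or more genes. Its 6 genes had log2 ratios from -0.081 to 0.048, with an SD of 0.059 over genes, against 0.20 in the core and 0.28 over bright probe sets, so that each gene was within 1.06-fold. Psmd8 was at the upper end with 1363 on the alone array and 1409 on the co-culture array. Psmd7, which pairs with the deubiquitinase subunit, was at the lower end with 1213 and 1147. Between them were Psmd6 (1492 against 1534), Psmd3 (824 against 847) and Psmd13 (926 against 947). Psmd11, a lid subunit linked to proteasome assembly in stem cells, had 1589 and 1517 on 1 probe set and 919 and 885 on the other, ratios of -0.067 and -0.054. The lid median was 0.036, and all 6 genes were above 0 under median scaling and all below 0 under scaling to the spiked controls, so the lid has no settled direction. The deubiquitinase subunit Psmd14, and Psmd12 and Psmc6, have no probe set with 1 symbol here and were not analysed here. Sem1, a small lid protein that the naming rule leaves out, had 1697 and 2118 (a log2 ratio of 0.32), outside the range of the 6 genes.

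Of the 3 activator genes Psme2 had the highest ratio of all 40 genes and Psme1 the next but one, after the core gene Psma1, while Psme4 was near 0. Psme1 and Psme2 encode the alpha and beta subunits of PA28, the cap known for its part in antigen processing. Psme1 had 1649 on the alone array and 2205 on the co-culture array (1.34-fold higher), above 95.0% of all probe sets above the filter. Psme2 had 716 and 1075, a log2 ratio of 0.59, above 98.1%. Psme2 was only just past 1.5-fold, and it was under that fold, at 0.52, when scaled to the spiked controls. Psme4, which encodes the activator PA200 of the nucleus, differed between its 3 probe sets. They had 810 and 814 (0.0083), 759 and 867 (0.19), and 181 and 147 (-0.30), the last below the filter. Psme3, which encodes PA28gamma, is named only by 4 probe sets that name Aoc3 and G6pc1 too, and the 3 of these above the filter lay between -0.16 and 0.049.

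The immunoproteasome genes that were left out by rule were higher alongside Psme1, Psme2 and Psmb10. Psmb8 had 403 on the alone array and 611 on the co-culture array (1.51-fold higher), and Psmb9 had 191 and 294 (1.54-fold higher). The peptide transporters Tap1 (96.1 against 137) and Tap2 (32.7 against 74.6) were higher too but below the filter, and the other probe set of Tap1 was at -0.64. Psme1 and Psme2 lie in the same stretch of chromosome 15 with 1 protein-coding gene between them, as do Psmb8 and Psmb9 on chromosome 20. Immunoproteasome genes are abundant in macrophages. Of 5 macrophage markers 4 were above the filter, 3 of them lower and 1, Cd14, higher. The other, Ptprc, was lower (45.4 against 31.1) but below the filter. The summed intensity of the 5 was 1133 on the alone array and 1028 on the co-culture array. Fibroblast markers were higher in 7 of 7, from Vim (1.04-fold) to Dcn (2.13-fold). Their sum, 36975 against 41705, is weighted to the brightest markers. The part of either cell type in this result was not tested.

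The promoters of Psme1, Psme2 and Psmb10 are shown because these members belong with Psmb8 and Psmb9 by role, and not by the size of their ratio. Of the 40 genes 28 were higher, and Psma1 (0.45) lay above Psme1 (0.42) and Psmb10 (0.33). Capitals mark GAAANNGAA, the repeat at the heart of interferon-stimulated response elements, searched on both strands in the 250 bases before the start. They are from RefSeq (GRCr8: chr15:33038721-33038970, plus strand; chr15:33052752-33053001, minus strand; chr19:50743293-50743542, minus strand), written 5′ to 3′ in the direction of each gene.
Psme1: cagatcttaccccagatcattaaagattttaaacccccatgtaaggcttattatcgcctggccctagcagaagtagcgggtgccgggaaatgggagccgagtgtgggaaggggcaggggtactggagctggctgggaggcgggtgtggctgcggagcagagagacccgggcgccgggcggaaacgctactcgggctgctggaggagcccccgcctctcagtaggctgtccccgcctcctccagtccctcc
Psme2: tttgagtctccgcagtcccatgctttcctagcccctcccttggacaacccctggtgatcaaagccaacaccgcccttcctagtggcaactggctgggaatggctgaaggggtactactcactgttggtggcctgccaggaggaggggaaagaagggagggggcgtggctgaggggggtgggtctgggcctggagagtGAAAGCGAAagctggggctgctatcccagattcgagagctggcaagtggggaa
Psmb10: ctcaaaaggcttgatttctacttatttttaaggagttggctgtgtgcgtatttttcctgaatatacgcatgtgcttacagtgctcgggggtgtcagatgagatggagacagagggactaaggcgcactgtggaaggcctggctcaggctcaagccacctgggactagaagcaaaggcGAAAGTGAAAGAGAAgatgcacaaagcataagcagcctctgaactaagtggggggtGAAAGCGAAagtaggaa
Psme2 holds the repeat 53 bases before the start and Psmb10 holds it at 73, 67 and 17 bases, where the copies at 73 and 67 share 3 bases. Psme1, Psmb8 and Psmb9 hold none in this window. The repeat was in 7 of the 38 members (18.4%), against 8.12% of all promoters and 5.66% of those of genes above the filter. The other 5 were Psmb3, Psma4, Psmd11, Psmd7 and Psmb2, with log2 ratios of 0.15, 0.096, -0.067, -0.081 and -0.20, so members with the repeat lay on both sides of 0. A further interferon motif, TTCNNNGAA (the gamma-activated site), was in 2 members (5.26%), Psmd3 and Psmd7, and in Psmb8, against 7.67% of all promoters.

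Of the assembly chaperones and the inhibitor 5 of 8 genes were below 0, a share near the 52.7% of all genes above the filter, and 4 of 8 were under median scaling. Their median was -0.093, or -0.0063 under median scaling. Under scaling to the spiked controls it was -0.16, and 2 of 8 genes were above 0. Psmg1 and Psmg2 form a pair that builds the alpha ring, yet they lay apart. Psmg1 had 767 on the alone array and 795 on the co-culture array (0.052), and Psmg2 had 656 and 509 (1.29-fold lower), the lowest of this group. The partner chaperones Psmg3 (582 against 668) and Psmg4 (775 against 822) were 1.15-fold and 1.06-fold higher, Psmg3 being the highest of the group. The chaperones of the base, Psmd10 (417 against 382), Psmd5 (1205 against 1113) and Psmd9 (630 against 600), were 1.09-fold, 1.08-fold and 1.05-fold lower, although Psmd9 was at 0.015 under median scaling. Psmf1, which encodes the inhibitor PI31, had 497 and 439 (1.13-fold lower). The maturation factor Pomp, which helps the beta ring close and is outside the naming rule, had 3681 and 4459 (1.21-fold higher).

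**Figure D3:**
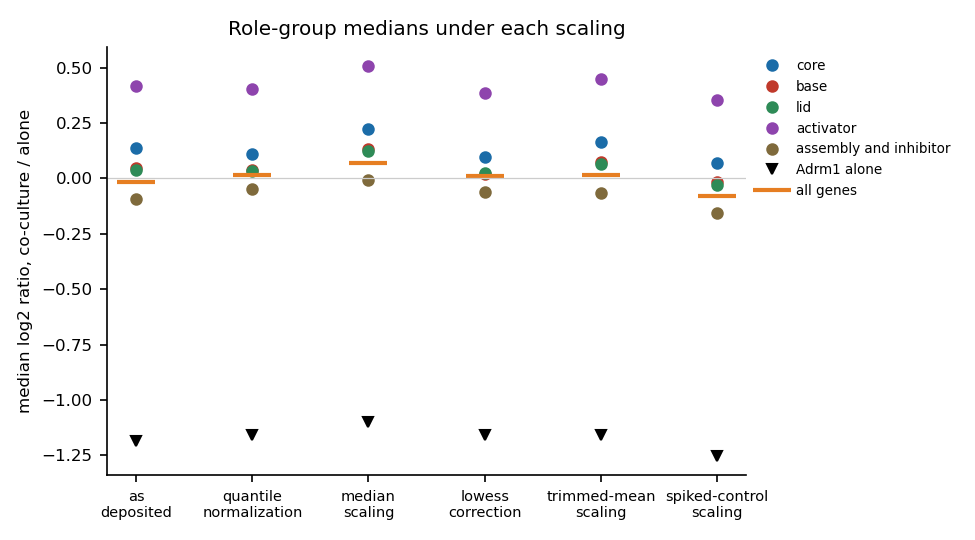
Median log2 ratio of each role group, of all genes above the filter (orange bars) and the ratio of Adrm1 (triangles), as deposited and under 5 other scalings of the 2 arrays. In each of the 6 settings the activator median is above the core median and Adrm1 far below, whereas base and lid cross 0 with scaling to the spiked controls (-0.016 and -0.029).

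Around the proteasome, ubiquitin genes and shuttle proteins were measured in part. Of 17 listed genes of ubiquitin and its conjugation 11 were above the filter, 4 of them higher and 7 lower (median -0.049). The ubiquitin-conjugating enzyme Ube2n, which builds signalling chains, had 1108 on the alone array and 697 on the co-culture array (1.59-fold lower), and its other probe set was at -0.45. Ube2d1, another conjugating enzyme, had 419 and 278 (1.51-fold lower), but its other probe set was at 0.42. The highest of the list was Ube2d2 (990 against 1199), whose 3 probe sets ran from -0.043 to 0.42. The ubiquitin-activating enzyme Uba1 was level (3189 against 3158).

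Of 16 listed symbols of proteins that ride on the proteasome, shuttle to it or help it mature, 11 were above the filter. Of these 5 were higher and 6 lower (median -0.056). The 16 count Sem1 also under its older symbol, Shfm1. Zfand2a, a stress-induced binder of the regulatory particle, had 215 and 345 (1.61-fold higher), and the shuttle protein Ubqln1 was lowest (913 against 733, -0.32). The segregase Vcp, an ATPase that pulls substrates out of complexes, had 2994 and 3300. Of the 7 measured genes of Vcp and its partners 5 were higher and 2 lower, from the adaptor Nploc4 (907 against 712) to Ubxn4 (915 against 1189). Of the 4 listed regulators of proteasome genes above the filter 1 was higher and 3 were lower (median -0.23). Nfe2l1, which restores proteasome gene expression when the complex is inhibited, had 346 and 380 (0.13), with another of its 3 probe sets at -0.46, and the NF-Y subunit gene Nfya had 337 and 218 (1.54-fold lower), with its other probe set at -0.82. Nfyb, another NF-Y subunit gene, went the other way (36.5 against 58.8, 0.57) but was below the filter, its alone value under the floor. Nfe2l2 and Foxo3 were at -0.13 and -0.33. The 3 other deubiquitinases measured were lower, from Uchl1, abundant in neurons (3595 against 3178), to Usp7 (500 against 344). The 8 measured genes of the COP9 signalosome, a complex built like the lid, had a median of -0.042, from Cops7a (-0.28) to Cops5 (0.38). That range is wider than that of the lid genes in the naming rule, which leaves out Sem1 at 0.32.

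**Figure D4:**
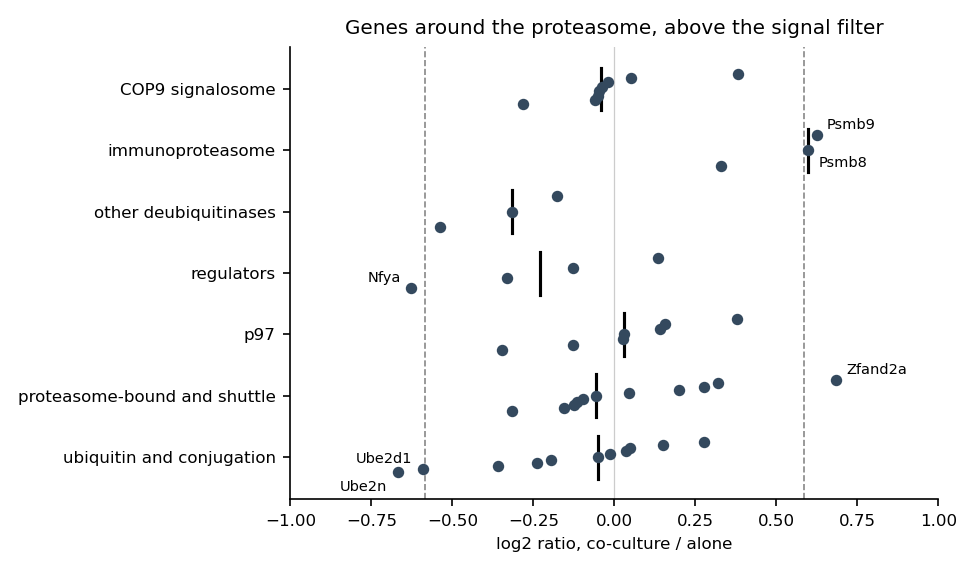
Log2 ratio (co-culture array over alone array) for genes around the proteasome that were above the signal filter (points), by list, with list medians (black bars) and 1.5-fold (dashed lines). Named points are past 1.5-fold: Ube2n, Ube2d1 and Nfya lower, Zfand2a, Psmb8 and Psmb9 higher.

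Markers of cell types moved with the conditions, beside all of these values. Of the 8 listed markers of sympathetic neurons 7 were measured, all were lower and their summed intensity was 23940 on the alone array and 18637 on the co-culture array. Th, the enzyme that starts noradrenaline synthesis, had 6175 and 4575, while Slc6a2 at 217 on the co-culture array was only just above that array's median. Of 7 measured cardiac myocyte markers 5 were higher and the other 2, Tnni3 and Ryr2, were under the floor on both arrays (summed 650 against 982). Only Nppa and Tnnt2 of these were above the filter, and the other probe set of Tnnt2 was at -0.43. Of 4 measured glial markers 3 were higher, up to S100b at 0.99, and Pmp22, the brightest, was at -0.11 (summed 4272 against 4420). In bulk RNA fewer cells of a type and less RNA per cell cannot be told apart, and the part of cell composition in the proteasome values was not tested.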

How the data were processed

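The deposited values are linear intensities, a single one for each probe set on each array. Per the labels and the series' design text the authors quantified the arrays with dChip 1.3, and the submitters' processing notes name MAS5. Neither source says which of these made the values or to which target they were scaled, and detection calls were not used. The deposited intensity was used without further scaling, set to at least the pooled 20th percentile (39.6), and log2 was taken. The 57 control probe sets were left out. Gene symbols are those of the platform annotation, and updating them through gene identifiers to the RefSeq table of GRCr8 changed 0 of them. Calculations used Python 3.11.15 with numpy 2.4.6, pandas 2.3.3 and statsmodels 0.14.6, and the steps were checked on simulated arrays.

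The members, role groups, pathway lists and marker lists were chosen with earlier results of these data known. All members are named. Full values were given for Adrm1, the catalytic genes, the highest and lowest gene of each role, genes past 1.5-fold and genes whose probe sets differ in sign, and the values of further members were added. Pathway genes named are those past 1.5-fold and the extremes of each list, and others (Uba1, Vcp, Nfe2l1, Nfyb, Pomp, Sem1) were chosen after their values were seen. The alternatives were 5 scalings, 3 floors, 2 filters, the mean over probe sets, no probe sets for several transcripts, and updated symbols. The number of arrays limits the precision.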

Additional observations from a re-analysis of the deposited data

Results flagged for a closer look

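The probe set that names both Psmb6 and Psmb6l1 belongs to no count or median of the report, since it has more than 1 symbol. Its values are also given with the beta ring. Its intensity was 1537 on the alone array and 2316 on the co-culture array, 1.51-fold higher (log2 ratio 0.59). It was singled out because it names a catalytic subunit of the core and yet was left out of the members. Which of the 2 genes it reports was not tested.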

How the results depend on the processing

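Each of the 13 alternatives was run on the medians, the counts, Adrm1 and the other 39 genes. Scaling to the spiked controls turned 3 medians negative: that of all proteasome genes (-0.014), that of the base (-0.016) and that of the lid (-0.029). The number of probe sets above the filter with a log2 ratio below 0, 13 as deposited, was 8 with median scaling and 22 when scaled to the spiked controls. The number of probe sets higher by at least 1.5-fold, 1 as deposited, was 0 under scaling to the spiked controls and 0 with a pseudocount in place of the floor, since Psme2 lies at the threshold. In each of these settings the change follows from moving every ratio by nearly the same amount or shrinking it. The core, activator and assembly medians kept their sign, and Adrm1 stayed lower by at least 2-fold, in all 13. Of the other 39 genes 26 kept their sign in all 13 and 13 did not, each of these 13 within 0.081 of 0 as deposited. A higher floor or none, the 2 filters, leaving out probe sets for several transcripts and updated symbols left each gene's value unchanged. These settings therefore say nothing on how stable a sign is. The mean over probe sets could move only genes with several probe sets, of which Adrm1 is none. No paired analysis was possible because each condition has 1 array and the labels give no replicate numbers. Leaving out a replicate was not run for the same reason.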
